A study of Homo sapiens with 48 samples.

Results

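T24 is an established human urothelial carcinoma line, known for an activated HRAS allele, and its response to the EZH2 inhibitor CPI-0209 was measured by RNA sequencing. The members were chosen by their labels and are 6 of the 48 libraries of a study of bladder cancer lines. The group T24 CPI-0209 holds 3 libraries of cells kept for 4 days in 250 nM of the compound, and the group T24 DMSO holds 3 libraries of cells given the vehicle, read at day 4. Both groups were grown in McCoy's 5A medium with serum and carry no other labelled treatment or allele. The other 42 libraries are of 7 further lines, HT1197, HT1376, KU1919, SW780, TCCSUP, VMCUB and 639V, with the same pair of groups in each. Whether the libraries of a group came from separate cultures is not stated in the labels, and the spread that the p-values rest on may be technical.

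PRC2, a Polycomb complex, places methyl groups on lysine 27 of histone H3 through its enzyme EZH2. EED and SUZ12 are its other core subunits, and EZH1 is a related methyltransferase that can take the place of EZH2. The mark lies over developmental regulators that a differentiated cell does not use, and PRC1 complexes, through their CBX subunits, bind it. In urothelial cancer, loss of chromatin regulators that oppose Polycomb is common.

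The T24 libraries held 30943898 to 49358560 counts, within the 26481418 to 50916911 of the whole study, and mitochondrial genes took 2% to 2.56% of them. Values are counts scaled to library size (CPM, with TMM factors), means are given ± SD over n = 3 libraries a group, and each change is a log2 ratio, CPI-0209 to DMSO, ± SE. A gene was called where the adjusted p of edgeR's quasi-likelihood test was under 0.05. The label was checked against marker genes, here with CPM scaled over all 48 libraries. Keratins of simple and urothelial epithelium were high in every T24 library, with KRT7 at 2734 to 3207 CPM and KRT18 at 941.7 to 1144 CPM. The epithelial adhesion genes EPCAM and CDH1 were low, at 3.117 to 9.529 CPM and 0.7718 to 7.001 CPM. In VMCUB DMSO cells they stood at 238.3 and 172 CPM. Of the basal markers, CD44 was at 877.5 to 1037 CPM and KRT5 at 0.9049 to 69.51 CPM. KRT14 was at 0.9863 to 11.47 CPM and TP63 at 0.1409 to 3.047 CPM. For EPCAM, CDH1, KRT5, KRT14 and TP63 the highest value was that of DMSO replicate 1. The urothelial regulators GATA3 and PPARG stood at 16.4 to 29.5 CPM and 50.4 to 74.99 CPM. The uroplakins UPK1A, UPK2 and UPK3A, the products that line differentiated urothelium, were each under 0.3 CPM. Mesenchymal genes were present as well, with VIM at 69.1 to 80.4 CPM and FN1 at 1634 to 3710 CPM. Of markers of other cells, the T cell gene CD3E had 0 counts in all 6 libraries, the leukocyte gene PTPRC was at most 0.132 CPM, and the fibroblast genes COL3A1, DCN and LUM were each under 0.3 CPM. Others of these markers were detected, with the leukocyte gene CD14 at 0.972 to 2.36 CPM, the fibroblast gene COL1A1 at 2.87 to 11.2 CPM, its fellow marker PDGFRA at up to 3.07 CPM, and the endothelial genes PECAM1 and CDH5 at 0.771 to 3.04 CPM and 1.21 to 1.61 CPM.

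Treatment was the main axis on which the 6 libraries differed, and a second axis set 1 library of each group apart. The first principal component of log2 CPM held 58.9% of the variance, with the CPI-0209 libraries between -45.6 and -36.4 and the DMSO libraries between 37.3 and 45.6. The second held 20.8%, on which CPI-0209 replicate 3 stood at -38.9 and DMSO replicate 2 at -31.0, while the other 4 libraries lay between 13.8 and 22.7. The gene ZFHX4, a large zinc finger homeodomain factor, shows this axis, with 50.3, 28.7 and 0.702 CPM in CPI-0209 libraries and 29.8, 1.80 and 46.6 CPM in DMSO libraries. SRCAP, a chromatin remodelling ATPase, had 251, 232 and 76.5 CPM in CPI-0209 libraries and 214, 100 and 239 CPM in DMSO libraries. In both genes the low values belong to these same 2 libraries.

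Cytosolic ribosomal protein genes moved the other way on that axis, lying above both other libraries of the group in 52 of 53 members in CPI-0209 replicate 3 and in 52 of 53 in DMSO replicate 2, by a median of 0.48 and 0.27 on the log2 scale. Collagen and matrix genes lay below both in 29 and in 24 of 34 members, with medians of -0.46 and -0.29. Both libraries also differed from their groups by transcript length. Among genes of 1000 to 2000 exonic bases the median deviation from the group mean was 0.22 in CPI-0209 replicate 3 and 0.15 in DMSO replicate 2, and among genes over 8000 bases it was -0.20 and -0.08. The part of RNA quality or of library preparation in this axis was not tested. The root mean square difference of log2 CPM was 0.313 between CPI-0209 replicates 1 and 2, and 0.544 and 0.511 from these to replicate 3. It was 0.482 between DMSO replicates 1 and 3, and 0.504 and 0.550 from these to replicate 2. Calls without these 2 libraries are given where they bear on a result.

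**Figure D1:**
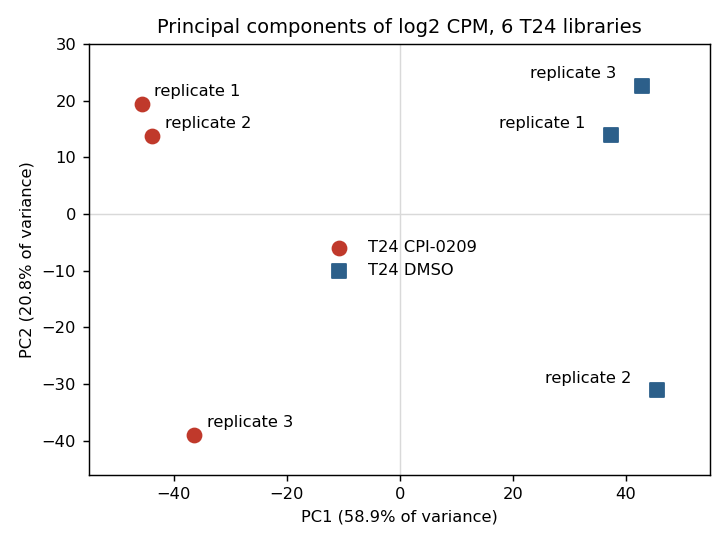
First and second principal components of log2 CPM of the 6 T24 libraries, with each point 1 library; red circles are CPI-0209 and blue squares are DMSO. CPI-0209 lies left and DMSO right on the first component, and CPI-0209 replicate 3 and DMSO replicate 2 lie below the other libraries on the second.

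A further feature concerned DMSO replicates 1 and 2. Of genes at 50 CPM or more in VMCUB DMSO cells, 29 were under 1 CPM in each of the 3 T24 CPI-0209 libraries and in T24 DMSO replicate 3, with CPM scaled over all 48 libraries. In T24 DMSO replicate 1 these genes stood at a median of 3.94% of their VMCUB level, with quartiles of 3.37% and 5.07%. In T24 DMSO replicate 2 the median was 1.48%, with quartiles of 1.26% and 1.89%. The other 4 libraries, by which the genes were chosen, had medians of 0.187% to 0.257%. KRT6A, a keratin of squamous epithelium, had 0.760, 0.886 and 0.904 CPM in CPI-0209 libraries and 63.0, 19.2 and 0.838 CPM in DMSO libraries, against 1710 CPM in VMCUB. The rule kept the CPI-0209 libraries and DMSO replicate 3 low for these genes, so it allows no comparison of the spread of the groups. Genes chosen in the same way for HT1197, HT1376, KU1919, SW780 and TCCSUP had medians of 0.145% to 0.554% in these 2 DMSO libraries, and the 7 genes so chosen for 639V had 1.08% and 0.888%. The source of the VMCUB-high transcripts in the T24 DMSO libraries was not tested. Of the genes tested in T24, 214 were at least 10 times higher in VMCUB DMSO cells than in any of the 3 CPI-0209 libraries and DMSO replicate 3. T24 DMSO replicates 1 and 2 did not enter this rule. Below, such genes are marked for TP63 and for the basal, junction, cancer/testis, neuronal and cytokine lists, as at least 10 times higher in VMCUB.

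**Figure D2:**
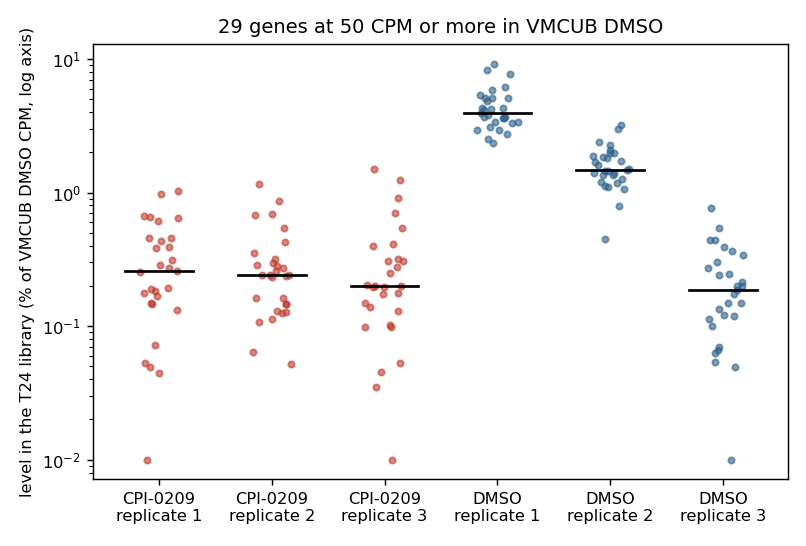
Level of 29 genes in each T24 library as a percentage of their mean CPM in VMCUB DMSO cells, on a log axis, with each point 1 gene, black lines the medians, and values under 0.01% drawn at 0.01%; CPI-0209 is red and DMSO blue. The medians are 3.94% in DMSO replicate 1 and 1.48% in DMSO replicate 2, and 0.187% to 0.257% in the other 4 libraries.

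CPI-0209 raised far more genes than it lowered. Of 15492 genes tested, 1452 rose, 9.37% of those tested, and 144 fell, 0.93%, so that 91% of the calls were increases. At least a 2-fold increase was called for 1032 genes, 6.66%, and at least a 2-fold decrease for 8, 0.0516%. The median over all tested genes was -0.01, and 7428 of them had a positive change. Without CPI-0209 replicate 3 and DMSO replicate 2 there were 2446 higher and 1395 lower calls, so the share of increases was 63.7%. With limma and library weights it was 72.5%, with DESeq2 75.3% and with the spread estimated from all 48 libraries 63.6%. The count of decreases therefore depends strongly on the fit, and that of 2-fold increases less so. Groups did not overlap in CPM for 17.7% of genes with CPI-0209 higher and for 10.5% with CPI-0209 lower, and all 1596 called genes were among them.

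Genes that rose at least 2-fold had a median of 2.38 CPM in CPI-0209 libraries and 0.560 CPM in DMSO libraries. Of them, 656 (63.6%) were under 1 CPM in DMSO libraries, against 18.5% of all tested genes, and 9 had 0 counts there. The filter on low counts and the call itself favour this, since a gene near 0 in DMSO libraries was tested only where CPI-0209 libraries held its counts, so these values are a description. Genes that fell had medians of 33.0 CPM in CPI-0209 libraries and 45.5 CPM in DMSO libraries, against 22.01 and 21.6 CPM for all tested genes, and a median change of -0.50. When each library was left out in turn, 842 of the 1452 increases were called all 6 times (58%), as were 25 of the 144 decreases (17.4%).

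**Figure D3:**
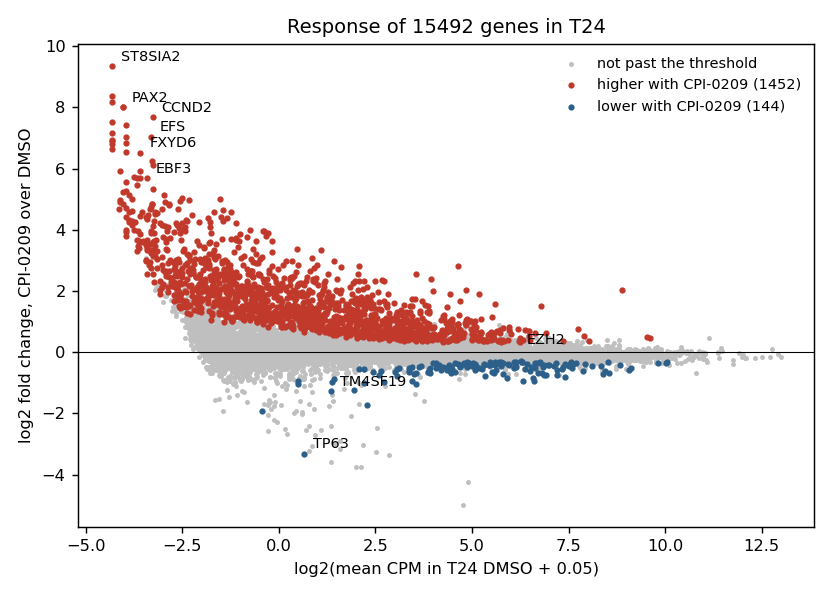
Change of each of 15492 genes in T24, as log2 fold change of CPI-0209 over DMSO, against its level in DMSO libraries, as log2 of mean CPM plus 0.05, with each point 1 gene. The 1452 called increases (red) reach their highest folds at the left, among genes near 0 CPM in DMSO, and the 144 called decreases (blue) lie mostly close to the zero line.

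The target and its partners kept their transcript levels within the spread of the test. EZH2 (ENSG00000106462, chromosome 7, 148807383 to 148884321, GRCh38) had 78.7, 76.1 and 77.0 CPM in CPI-0209 libraries and 68.3, 76.4 and 74.2 CPM in DMSO libraries. The groups overlap, and the change was 0.08 ± 0.08 (edgeR adjusted p = 0.664). EZH1 stood at 0.10 ± 0.19 (adjusted p = 0.85), EED at -0.06 ± 0.13 (adjusted p = 0.865) and SUZ12 at -0.10 ± 0.10 (adjusted p = 0.644). CPI-0209 acts on the enzyme, so these levels do not measure whether the target was inhibited. Of 13 PRC2 subunits tested 1 rose (7.69%) and 0 fell with edgeR, and 1 was lower both at an unadjusted p under 0.05 and with DESeq2, and 0 with limma. The increase was EPOP, an accessory subunit that binds elongin, with 32.8, 35.4 and 37.0 CPM in CPI-0209 libraries and 21.1, 21.6 and 18.6 CPM in DMSO libraries. All CPI-0209 values lie above all DMSO values, a change of 0.78 ± 0.10 (adjusted p = 0.00237). The median of the list was -0.06.

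Of 19 PRC1 subunits 3 rose and 0 fell, 15.8% against 9.37% of all genes, with a list median of 0.06. The count of 0 falls was also 0 at an unadjusted p under 0.05 and with DESeq2, and 1 with limma. BMI1, which stimulates the ubiquitin ligase of PRC1, had 104, 105 and 116 CPM in CPI-0209 libraries and 56.7, 72.2 and 55.7 CPM in DMSO libraries (0.82 ± 0.12, adjusted p = 0.00573). CBX2, a chromodomain reader of the PRC2 mark, averaged 56.3 ± 7.39 CPM in CPI-0209 libraries and 33.8 ± 2.81 CPM in DMSO libraries (0.74 ± 0.12, adjusted p = 0.00908). CBX8, another reader, changed by 0.54 ± 0.10 (adjusted p = 0.0174), and its call was lost without CPI-0209 replicate 2, DMSO replicate 1 or DMSO replicate 3 (adjusted p up to 0.103). Among 23 SWI/SNF subunits and KDM6 demethylases, which oppose Polycomb, 1 rose (4.35%) and 0 fell, as at an unadjusted p under 0.05 and with DESeq2 and limma. SMARCD3, a subunit of muscle and neural complexes, averaged 18.5 ± 0.398 CPM in CPI-0209 libraries and 10.7 ± 0.884 CPM in DMSO libraries (0.79 ± 0.09, adjusted p = 0.0021).

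The genes with the largest increases were almost silent in DMSO libraries. The 16 described here had the largest folds among called genes with a mean of at least 1 CPM in CPI-0209 libraries. Their 3 CPI-0209 values lie above their 3 DMSO values in every case, which the rule required. All 16 kept their call under each of 17 other settings, with adjusted p of at most 0.0405. Upstream sequences are shown for the first 4 of them that have an entry in RefSeq's table of gene starts (GRCh38.p14), as the 250 bases before the start, 5′ to 3′ on the gene's strand, with each CG dinucleotide in capitals. CG-rich starts are where PRC2 is usually found, and the 4 windows differ in this. They lie at chr10:100735146-100735395 on the plus strand for PAX2, the upstream one of its 2 listed starts, at chr19:55768868-55769117 on the plus strand for RFPL4AL1, at chr14:93788486-93788735 on the minus strand for PRIMA1 and at chr10:122560504-122560753 on the plus strand for DMBT1.
PAX2: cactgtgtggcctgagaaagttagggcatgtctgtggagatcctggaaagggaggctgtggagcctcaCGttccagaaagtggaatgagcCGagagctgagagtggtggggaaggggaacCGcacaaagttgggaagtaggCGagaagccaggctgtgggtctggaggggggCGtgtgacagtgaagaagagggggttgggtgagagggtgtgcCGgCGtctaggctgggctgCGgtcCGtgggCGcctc
RFPL4AL1: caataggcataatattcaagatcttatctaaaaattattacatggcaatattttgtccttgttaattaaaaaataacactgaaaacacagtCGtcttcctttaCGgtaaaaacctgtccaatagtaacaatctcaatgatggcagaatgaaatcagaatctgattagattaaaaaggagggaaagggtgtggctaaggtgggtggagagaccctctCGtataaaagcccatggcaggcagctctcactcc
PRIMA1: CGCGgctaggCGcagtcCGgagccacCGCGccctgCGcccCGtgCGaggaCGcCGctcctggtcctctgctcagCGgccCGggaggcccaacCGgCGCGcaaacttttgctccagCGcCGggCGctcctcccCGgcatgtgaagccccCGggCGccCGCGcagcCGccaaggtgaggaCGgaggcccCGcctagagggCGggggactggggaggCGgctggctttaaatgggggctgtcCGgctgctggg
DMBT1: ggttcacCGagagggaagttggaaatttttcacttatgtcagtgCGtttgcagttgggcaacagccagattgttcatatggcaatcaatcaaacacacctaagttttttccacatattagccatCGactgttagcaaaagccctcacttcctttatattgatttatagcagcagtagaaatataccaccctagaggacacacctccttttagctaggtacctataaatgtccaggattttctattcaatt
The PRIMA1 window held 30 CG and the PAX2 window 10, while RFPL4AL1 and DMBT1 held 3 each. Over all 35116 windows of the table, 12.4% held 30 or more, 52.2% held 10 or more and 29.3% held up to 3. The table had a window for 73.9% of tested genes and for 68.9% of those that rose at least 2-fold, too few for a comparison over all of them.

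ST8SIA2, a polysialyltransferase that modifies the neural adhesion molecule NCAM (chromosome 15, 92393828 to 92468728), had 2.19, 1.84 and 1.75 CPM in CPI-0209 libraries and 0 counts in all 3 DMSO libraries. Against a floor of 3 counts over the DMSO group it was at least 77.6-fold higher (adjusted p = 0.000547). PAX2, a transcription factor of the developing kidney and urogenital tract (chromosome 10, 100735603 to 100829941), had 2.93, 2.90 and 2.77 CPM in CPI-0209 libraries, against 0, 0 and 0.0330 CPM in DMSO libraries. The single DMSO count gives a ratio of 350 with a 95% interval of 62.5 to 13867, which covers counting error only (adjusted p = 0.000205). CCND2, which encodes cyclin D2 (chromosome 12, 4273772 to 4305350), had 11.7, 10.9 and 9.32 CPM in CPI-0209 libraries and 0.0630, 0 and 0.0991 CPM in DMSO libraries. It rose by 7.67 ± 0.42 (adjusted p = 0.000175). EFS, an adaptor of the Cas family that binds Src kinases (chromosome 14, 23356402 to 23365752), had 8.68, 8.43 and 6.32 CPM in CPI-0209 libraries and 0.0630, 0.0899 and 0 CPM in DMSO libraries, a change of 7.03 ± 0.41 (adjusted p = 0.000185). None of these DMSO values comes near a CPI-0209 value.

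PRIMA1, which anchors acetylcholinesterase to membranes, had 3.53, 3.74 and 2.55 CPM in CPI-0209 libraries and 0.0420, 0 and 0 CPM in DMSO libraries, a ratio of 200 (95% interval 54.9 to 1653). DMBT1, a secreted scavenger receptor of mucosal surfaces, had 3.59, 2.18 and 1.83 CPM in CPI-0209 libraries and 0, 0.0449 and 0 CPM in DMSO libraries, a ratio of 150 (41.1 to 1241). CHST1, a sulfotransferase that modifies keratan sulfate, averaged 2.20 ± 0.155 CPM in CPI-0209 libraries and 0.0145 ± 0.0126 CPM in DMSO libraries, a ratio of 135 (37.0 to 1119). PIWIL1, a small-RNA binding protein of the germ line, averaged 1.80 ± 0.157 CPM in CPI-0209 libraries and 0.0145 ± 0.0126 CPM in DMSO libraries, a ratio of 109 (29.98 to 909). These 4 genes rest on 2 DMSO counts each, so the size of their folds is known only within wide limits. SYT9, a synaptotagmin of secretory vesicles, and KCNQ1, a voltage-gated potassium channel, each had 3 DMSO counts, with ratios of 58.5 (19.7 to 286) and 58.8 (19.8 to 288).

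FXYD6, a regulator of the sodium pump, rose by 6.52 ± 0.47 (adjusted p = 0.000306). LMX1B, a LIM homeodomain factor of limb and kidney development, had 4.96, 4.14 and 3.45 CPM in CPI-0209 libraries and 0.0840, 0.0449 and 0.0330 CPM in DMSO libraries, a change of 6.13 ± 0.32 (adjusted p = 0.000175). ROR2, a receptor for WNT5A, rose by 5.90 ± 0.33 (adjusted p = 0.000175), and EBF3, a helix-loop-helix factor, by 5.69 ± 0.35 (adjusted p = 0.000187). As in the genes above, the groups are far apart. RFPL4AL1 and RFPL4A, neighbouring and near-identical genes on chromosome 19, had 2.85 ± 0.574 and 4.55 ± 0.204 CPM in CPI-0209 libraries against 0.0110 ± 0.0191 and 0.0535 ± 0.0449 CPM in DMSO libraries. How reads were divided between these copies is uncertain.

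The decreases were smaller and less stable than the increases. The 10 genes with the largest called falls, groups that do not overlap and at least 1 CPM in DMSO libraries range from -3.33 to -0.95. GSDMC, a member of the gasdermin family of pore-forming proteins, had 3.26, 3.25 and 3.47 CPM in CPI-0209 libraries and 6.15, 6.43 and 7.01 CPM in DMSO libraries, and it fell by 0.97 ± 0.12 (adjusted p = 0.00216). TNFRSF6B, a secreted decoy receptor for the FAS ligand, had 45.9, 48.7 and 57.5 CPM in CPI-0209 libraries and 96.4, 107 and 89.8 CPM in DMSO libraries, and it fell by 0.95 ± 0.12 (adjusted p = 0.00255). In both genes every CPI-0209 value lies below every DMSO value, which the rule required of all 10, and the call held without any single library. Without DMSO replicates 1 and 2 together the adjusted p was 0.0516 for GSDMC and 0.0982 for TNFRSF6B, and TNFRSF6B was not called with the spread of all 48 libraries either.

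The other 8 falls each lost their call when at least 2 of the single libraries were left out. TP63, the basal epithelial regulator (chromosome 3, 189631416 to 189897279), had 0.164, 0.143 and 0.149 CPM in CPI-0209 libraries and 2.96, 1.303 and 0.264 CPM in DMSO libraries, and its change was -3.33 ± 0.82 (adjusted p = 0.0457). It stood at 111 CPM in VMCUB, and its high values are in the 2 DMSO libraries that carry VMCUB-high transcripts. Without these 2 its change was -0.80 (adjusted p = 0.763), and its call was lost without any one library except DMSO replicate 3, with adjusted p up to 0.162. IL13RA2, a decoy receptor for interleukin 13, had 4.71, 4.92 and 7.32 CPM in CPI-0209 libraries and 10.5, 14.3 and 10.3 CPM in DMSO libraries, a change of -1.05 ± 0.21 (adjusted p = 0.0219). Its call was lost without any one library except CPI-0209 replicate 3, with adjusted p up to 0.0954.

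MAP1LC3A, which takes part in autophagosome formation, fell by 1.00 ± 0.19 (adjusted p = 0.0142), and was not called without CPI-0209 replicate 1 or replicate 2 (adjusted p up to 0.0717). TM4SF19, a tetraspan membrane protein, fell by 1.28 ± 0.27 (adjusted p = 0.0247), and was not called without CPI-0209 replicate 2, DMSO replicate 1 or DMSO replicate 2 (up to 0.0902). CCDC103, a factor of ciliary dynein assembly, fell by 1.03 ± 0.20 (adjusted p = 0.0178), and was not called without CPI-0209 replicate 1, CPI-0209 replicate 2 or DMSO replicate 1 (up to 0.101). UGT2B7, a glucuronosyltransferase with close relatives in the genome, changed by -1.24 ± 0.25 (adjusted p = 0.0224), and was called only without CPI-0209 replicate 3 or DMSO replicate 3 (otherwise up to 0.101). The chemokine receptor CCR10 changed by -0.97 ± 0.21 (adjusted p = 0.0302), and was called only without CPI-0209 replicate 3 (otherwise up to 0.101). SMIM11, a small membrane protein whose reads may be shared with a copy, changed by -1.72 ± 0.39 (adjusted p = 0.032), and was called only without CPI-0209 replicate 3 or DMSO replicate 1 (otherwise up to 0.128).

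Among cell cycle regulators, 3 of 11 cyclin-dependent kinase inhibitors and D-type cyclins rose (27.3%) and 0 fell with edgeR, and the list median was 0.02. At an unadjusted p under 0.05 there were 4 higher and 1 lower, with DESeq2 3 and 1, and with limma 3 and 2. CDKN1C, the inhibitor p57, had 9.34, 8.33 and 12.2 CPM in CPI-0209 libraries and 1.15, 1.75 and 1.19 CPM in DMSO libraries. The groups are well apart, and it rose by 2.85 ± 0.23 (adjusted p = 0.000451). CDKN1A, the inhibitor p21, averaged 54.5 ± 0.941 CPM in CPI-0209 libraries and 42.1 ± 0.827 CPM in DMSO libraries (0.37 ± 0.07, adjusted p = 0.0182), and its call held only without CPI-0209 replicate 3, with adjusted p up to 0.108 without any other library. CDKN2B stood at 0.31 ± 0.11 (adjusted p = 0.144). Of 45 proliferation genes 0 were called by edgeR, 1 and 2 were higher and lower at an unadjusted p under 0.05, DESeq2 called 0 and 2, and limma 3 and 1. Their median of -0.03 is close to the -0.01 of all genes. Of 28 p53 targets 5 rose (17.9%, against 9.37% of all genes) and 0 fell, with a median of -0.01 (at an unadjusted p under 0.05, 8 and 2, with DESeq2 5 and 1, with limma 8 and 4). Leaving out any 1 library other than CPI-0209 replicate 3 gave 3 increases. The 5 include BTG2, an antiproliferative gene, at 9.12 ± 0.545 CPM in CPI-0209 libraries and 4.12 ± 0.370 CPM in DMSO libraries (1.14 ± 0.12, adjusted p = 0.00116), and SULF2, a heparan sulfate sulfatase, which rose by 2.01 ± 0.21 (adjusted p = 0.00122).

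Developmental transcription factors rose in number. Of 78 outside the HOX clusters, 32 rose (41%) and 2 fell, against 9.37% and 0.93% of all genes, and the list median was 0.58. Without CPI-0209 replicate 3 and DMSO replicate 2 the counts were 34 and 5, and leaving out single libraries gave 22 to 29 increases. GATA2, a factor of blood and urogenital development, had 33.1, 32.4 and 31.9 CPM in CPI-0209 libraries and 7.20, 6.70 and 5.58 CPM in DMSO libraries (2.32 ± 0.11, adjusted p = 0.000175). SOX21, a neural factor, had 6.33, 6.78 and 7.30 CPM in CPI-0209 libraries and 0.504, 0.404 and 0.628 CPM in DMSO libraries (3.75 ± 0.19, adjusted p = 0.000175). GATA4, a factor of heart and endoderm, had 3.86, 4.06 and 3.26 CPM in CPI-0209 libraries and 0.294, 0.180 and 0.264 CPM in DMSO libraries (3.91 ± 0.23, adjusted p = 0.000185). In all 3 the groups lie far apart beside the spread of their replicates. FOXF1, a mesenchymal forkhead factor, rose by 1.57 ± 0.10 (adjusted p = 0.000205), SOX18, of endothelium, by 4.29 ± 0.33 (adjusted p = 0.000423), and DLX3, of skin and placenta, by 4.08 ± 0.37 (adjusted p = 0.000708). The 2 falls were FOXA1, a luminal pioneer factor, at -0.45 ± 0.10 (adjusted p = 0.0332), and DLX1, at -0.31 ± 0.08 (adjusted p = 0.0484). DLX1 lost its call without any 1 of the 6 libraries (adjusted p up to 0.169), and FOXA1 kept its call only without CPI-0209 replicate 3 (otherwise up to 0.126).

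HOX genes, which set position along the body axis and are classic Polycomb targets, divided by cluster. Of 32 tested, 5 rose (15.6%, against 9.37% of all genes) and 5 fell, with a list median of -0.19. Without CPI-0209 replicate 2 or DMSO replicate 3 there were 3 increases. In the HOXC cluster 4 of 7 rose and 0 fell, with a median of 0.53, while HOXA had 0 higher and 2 lower calls of 9 and HOXB had 1 and 3 of 9. HOXD had 0 calls of 7, with a median of -0.20. At an unadjusted p under 0.05, HOXC had 6 higher and 0 lower, HOXA 0 and 4, HOXB 1 and 4, and HOXD 0 and 1, and over all clusters DESeq2 called 5 and 7 and limma 6 and 11. HOXC13, which controls hair and nail keratins, had 13.3, 14.3 and 14.2 CPM in CPI-0209 libraries and 1.39, 1.91 and 2.51 CPM in DMSO libraries. It rose by 2.86 ± 0.20 (adjusted p = 0.000301), and no DMSO value came near the CPI-0209 values. HOXC8 rose by 0.99 ± 0.13 (adjusted p = 0.00281) and HOXB13, of prostate and hindgut, by 0.70 ± 0.09 (adjusted p = 0.00297). The other calls were smaller, at 0.51 for HOXC4 and 0.35 for HOXC6, and -0.59 for HOXA7, -0.51 for HOXA5, -0.41 for HOXB8, -0.36 for HOXB5 and -0.33 for HOXB6. Each of the 5 falls was called only without CPI-0209 replicate 3 (otherwise adjusted p up to 0.174), HOXC6 lost its call without any 1 of the 6 libraries (up to 0.178), and HOXC4 was not called without CPI-0209 replicate 2 or DMSO replicate 3 (up to 0.0601).

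Of 41 Wnt and BMP pathway ligands, receptors, antagonists and feedback genes, 24 rose (58.5%) and 1 fell, against 9.37% and 0.93% of all genes, with a median of 0.98. Without CPI-0209 replicate 3 and DMSO replicate 2 the counts were 29 and 3, and leaving out single libraries gave 16 to 25 increases, the fewest without CPI-0209 replicate 2. Among ligands, WNT5A, of noncanonical Wnt signalling, had 2.88, 2.90 and 2.60 CPM in CPI-0209 libraries and 0.546, 0.539 and 0.694 CPM in DMSO libraries (2.24 ± 0.18, adjusted p = 0.00046). BMP7 had 1.12, 1.72 and 1.64 CPM in CPI-0209 libraries and 0, 0.0899 and 0.0661 CPM in DMSO libraries (4.84 ± 0.58, adjusted p = 0.0023). WNT10B rose by 2.91 ± 0.28 (adjusted p = 0.000942). In each of these ligands the 3 CPI-0209 values lie above the DMSO values by more than the replicates differ.

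The R-spondin receptor LGR5 had 33.9, 25.5 and 28.6 CPM in CPI-0209 libraries and 3.42, 4.27 and 4.79 CPM in DMSO libraries (2.82 ± 0.17, adjusted p = 0.000185), and its relative LGR6 rose by 2.76 ± 0.40 (adjusted p = 0.00511). Antagonists rose too. CHRD, which encodes the BMP-binding chordin, had 2.44, 2.90 and 2.49 CPM in CPI-0209 libraries and 0.0420, 0.157 and 0.0661 CPM in DMSO libraries (4.82 ± 0.37, adjusted p = 0.000415). BAMBI, a decoy receptor of the TGF-beta family, had 6.46, 5.98 and 6.43 CPM in CPI-0209 libraries and 0.987, 1.08 and 0.760 CPM in DMSO libraries (2.72 ± 0.16, adjusted p = 0.000185). NOTUM, which removes the lipid from Wnt proteins, rose by 2.34 ± 0.25 (adjusted p = 0.0013). Feedback targets of both pathways were among the increases, with AXIN2, a target of canonical Wnt signalling, at 3.05 ± 0.28 (adjusted p = 0.000744), and ID2 and SMAD6, targets of BMP signalling, at 1.47 ± 0.21 (adjusted p = 0.0043) and 0.80 ± 0.10 (adjusted p = 0.00226). The 1 fall was DKK3, a secreted relative of the Dickkopf inhibitors, at 361 ± 33.2 CPM in CPI-0209 libraries and 536 ± 31.7 CPM in DMSO libraries (-0.57 ± 0.10, adjusted p = 0.0118), which was not called without DMSO replicate 1 (adjusted p = 0.0593).

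Of 44 collagens and matrix proteins 13 rose (29.5%) and 0 fell, against 9.37% and 0.93% of all genes, and 31 were not called. The list median was 0.39, with changes from -3.16 to 4.92. At an unadjusted p under 0.05 there were 17 higher and 2 lower, and 1 was lower with DESeq2 and 0 with limma. THBS1, the matricellular protein thrombospondin 1, had 2266, 2018 and 1602 CPM in CPI-0209 libraries and 525, 398 and 504 CPM in DMSO libraries (2.04 ± 0.17, adjusted p = 0.000469). BGN, the proteoglycan biglycan, had 4.08, 4.12 and 3.19 CPM in CPI-0209 libraries and 0.0840, 0.180 and 0.0991 CPM in DMSO libraries (4.92 ± 0.29, adjusted p = 0.000185). In both the groups are well apart although CPI-0209 replicate 3 is the lowest of its group. COL8A2 rose by 3.64 ± 0.19 (adjusted p = 0.000175) and THBS2 by 2.06 ± 0.18 (adjusted p = 0.000612). Leaving out the 2 libraries that stand apart, in which matrix genes were low, gave 24 increases and 1 fall.

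Of 22 mesenchymal genes 6 rose (27.3%, against 9.37% of all genes) and 0 fell, with a median of 0.20. At an unadjusted p under 0.05 there were 9 and 1, with DESeq2 7 and 1, and with limma 11 and 1. MMP2, a gelatinase, had 12.7, 10.96 and 9.45 CPM in CPI-0209 libraries and 0.819, 0.562 and 0.760 CPM in DMSO libraries (3.95 ± 0.20, adjusted p = 0.000175). SNAI1, which represses epithelial genes, averaged 2.73 ± 0.152 CPM in CPI-0209 libraries and 1.08 ± 0.179 CPM in DMSO libraries (1.35 ± 0.18, adjusted p = 0.00331), and ACTA2, smooth muscle actin, rose by 0.75 ± 0.12 (adjusted p = 0.00672). Genes used to mark other cell types moved with treatment as well. Of 8 fibroblast markers tested, 4 rose (50%) and 0 fell, counts that were the same at an unadjusted p under 0.05, with DESeq2 and with limma. They include THY1, a surface glycoprotein, which had 6.13, 7.04 and 6.11 CPM in CPI-0209 libraries and 0.210, 0.404 and 0.165 CPM in DMSO libraries (4.58 ± 0.28, adjusted p = 0.000205). PDGFRA, the receptor for platelet-derived growth factor, had 3.09, 1.96 and 2.19 CPM in CPI-0209 libraries and 0.0420, 0.0899 and 0.0330 CPM in DMSO libraries (5.33 ± 0.38, adjusted p = 0.000303). Over 7 fibroblast markers the summed level was 12.8 to 18.5 CPM in CPI-0209 libraries and 5.07 to 6.72 CPM in DMSO libraries, but COL1A2, at 0.966 to 1.04 CPM in CPI-0209 libraries and 1.00 to 1.64 CPM in DMSO libraries, and COL3A1, DCN and LUM, under 0.3 CPM in all, did not follow.

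Of 10 endothelial markers tested, 5 rose (50%, against 9.37% of all genes) and 0 fell. There were 5 and 0 also at an unadjusted p under 0.05 and with DESeq2, and 5 and 1 with limma. ERG, an endothelial ETS factor, had 6.87, 6.37 and 5.26 CPM in CPI-0209 libraries and 0.588, 0.764 and 0.397 CPM in DMSO libraries (3.37 ± 0.24, adjusted p = 0.000303). TIE1, an endothelial receptor kinase, rose by 1.43 ± 0.13 (adjusted p = 0.000772) and the adhesion molecule PECAM1 by 1.55 ± 0.20 (adjusted p = 0.00273). The cadherin CDH5, which defines endothelium, stood at 1.33 to 1.48 CPM in CPI-0209 libraries and 1.21 to 1.61 CPM in DMSO libraries, and the groups overlap. The summed level of the endothelial markers PECAM1, CDH5 and VWF was 3.64 to 4.83 CPM in CPI-0209 libraries and 2.18 to 2.59 CPM in DMSO libraries. The leukocyte markers PTPRC, CD3E, CD14 and LYZ summed to 2.36 to 2.62 CPM in CPI-0209 libraries and 1.01 to 1.58 CPM in DMSO libraries. Nearly all of this came from CD14, the endotoxin co-receptor, while PTPRC and CD3E were at or near 0. In a longer leukocyte list 1 of 5 tested genes rose (20%), CD14, and 0 fell. Its other members include LAPTM5, at a mean of 73.9 CPM in CPI-0209 libraries and 67.2 CPM in DMSO libraries. CORO1A averaged 23.2 and 22.2 CPM, and CD68 9.59 and 13.3 CPM, and none of these was called. In bulk RNA, more cells that express a gene and more RNA of it per cell cannot be told apart.

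Of 23 neuronal genes 9 rose (39.1%) and 0 fell, with a median of 0.83. At an unadjusted p under 0.05 there were 14 and 2 (with DESeq2 10 and 1, with limma 11 and 1). Of the 23, 2 are at least 10 times higher in VMCUB. NCAM1, the adhesion molecule that ST8SIA2 modifies, had 2.71, 2.61 and 1.85 CPM in CPI-0209 libraries and 0.210, 0.270 and 0.0661 CPM in DMSO libraries (3.62 ± 0.39, adjusted p = 0.00138). LINGO1, a neuronal membrane protein, had 1.26, 0.796 and 0.873 CPM in CPI-0209 libraries and 0 counts in DMSO libraries. The kinesin KIF5C rose by 0.95 ± 0.10 (adjusted p = 0.00142). Of 37 axon guidance genes 13 rose (35.1%, against 9.37% of all genes) and 2 fell, with a median of 0.40. EFNB3, an ephrin ligand, had 11.7, 12.3 and 9.81 CPM in CPI-0209 libraries and 0.966, 0.674 and 0.463 CPM in DMSO libraries (3.97 ± 0.25, adjusted p = 0.000205). SEMA6B rose by 1.303 ± 0.09 (adjusted p = 0.000301) and the ephrin receptor EPHA4 by 1.92 ± 0.20 (adjusted p = 0.00121), while SEMA7A was lower at -0.74 ± 0.13 (adjusted p = 0.0135) and lost its call without DMSO replicate 1 (adjusted p = 0.0635).

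Of 32 clustered protocadherins, cell surface proteins of neurons, 7 rose (21.9%) and 0 fell, all 7 of the beta cluster. The list median was -0.03, and 4 rose without CPI-0209 replicate 1. PCDHB8 had the largest change of the list, with 2.38 ± 0.158 CPM in CPI-0209 libraries and 0.265 ± 0.173 CPM in DMSO libraries (3.11 ± 0.39, adjusted p = 0.0028). Its close relatives may share its reads. At an unadjusted p under 0.05, 10 were higher and 2 lower, and DESeq2 called 6 and 0, and limma 10 and 3. Of 11 cancer/testis antigens, proteins normally confined to germ cells, 5 rose (45.5%, against 9.37% of all genes) and 0 fell, with a median of 0.59. At an unadjusted p under 0.05, with DESeq2 and with limma there were 5 and 1. Of the 11, 4 are at least 10 times higher in VMCUB. MAGEA11 averaged 1.21 ± 0.207 CPM in CPI-0209 libraries and 0.352 ± 0.0138 CPM in DMSO libraries (1.78 ± 0.23, adjusted p = 0.00312), and PAGE1 rose by 2.66 ± 0.35 (adjusted p = 0.00316). GAGE1 and GAGE2A, also called higher, belong to a family of near-identical copies and are uncertain. The 5 increases held without any single library.

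Immune genes differed by list. Of 42 type I interferon-stimulated genes 3 rose (7.14%, against 9.37% of all genes) and 3 fell, with a median of -0.02, and single libraries left out gave 1 to 3 increases, the fewest without CPI-0209 replicate 2, and 0 to 7 falls, the most without CPI-0209 replicate 3. CMPK2 rose by 1.03 ± 0.14 (adjusted p = 0.00367), while IFIT2 was lower by -0.48 ± 0.09 (adjusted p = 0.0155), a call that was lost without CPI-0209 replicate 1, CPI-0209 replicate 2 or DMSO replicate 3 (up to 0.0943). Without the 2 libraries that stand apart 5 rose and 10 fell. Of 15 MHC class I presentation genes 2 rose (13.3%) and 0 fell, with a median of -0.08 (0 lower at an unadjusted p under 0.05 and with limma, 1 with DESeq2), and only without CPI-0209 replicate 3 were there still 2 increases. HLA-B, which presents peptides to T cells, had 54.0, 54.5 and 69.5 CPM in CPI-0209 libraries and 30.8, 30.02 and 25.4 CPM in DMSO libraries (1.04 ± 0.13, adjusted p = 0.00295), and reads it shares with other HLA genes make its level uncertain. Of 12 MHC class II genes 3 rose (25%) and 0 fell, with a median of 0.29 (0 lower at an unadjusted p under 0.05, with DESeq2 and with limma), led by HLA-DRB1 at 0.667 ± 0.128 CPM in CPI-0209 libraries and 0.00749 ± 0.0130 CPM in DMSO libraries (adjusted p = 0.00126). Only 1 of the 3 increases was called without CPI-0209 replicate 1, DMSO replicate 1 or DMSO replicate 2. Of 29 cytokines and chemokines 6 rose (20.7%) and 2 fell. Of the 29, 3 are at least 10 times higher in VMCUB, among them IL1A, 1 of the 2 falls. IL1A had 4.55, 4.23 and 5.77 CPM in CPI-0209 libraries and 9.13, 7.60 and 8.23 CPM in DMSO libraries. With single libraries left out, IL1A was called only without CPI-0209 replicate 3 or DMSO replicate 2 (otherwise adjusted p up to 0.0806). The other fall, CSF3, was called only without CPI-0209 replicate 3 (otherwise up to 0.191). CCL2, which attracts monocytes, had 2.41, 2.31 and 3.26 CPM in CPI-0209 libraries and 0.0840, 0.0225 and 0.231 CPM in DMSO libraries (4.68 ± 0.51, adjusted p = 0.00154). The chemokine CXCL16 rose by 0.93 ± 0.12 (adjusted p = 0.00295), and single libraries left out gave 2 to 5 increases in the list, the fewest without DMSO replicate 1.

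Epithelial genes changed in both directions. Of 21 luminal urothelial genes 5 rose (23.8%, against 9.37% of all genes) and 2 fell, with a median of 0.01. GATA3, a luminal regulator, had 26.1, 28.1 and 28.5 CPM in CPI-0209 libraries and 18.5, 16.1 and 19.7 CPM in DMSO libraries (0.61 ± 0.10, adjusted p = 0.00917), and was not called without CPI-0209 replicate 2 (adjusted p = 0.0537). FGFR3, a growth factor receptor often altered in luminal tumours, had 3.12, 2.57 and 2.09 CPM in CPI-0209 libraries and 1.01, 0.764 and 0.364 CPM in DMSO libraries (1.82 ± 0.34, adjusted p = 0.0157). Its call was lost without CPI-0209 replicate 1, CPI-0209 replicate 2 or DMSO replicate 2 (up to 0.0628), and single libraries left out gave 1 to 3 increases in the list, the fewest without CPI-0209 replicate 2. Of 22 epithelial junction genes 3 rose (13.6%) and 3 fell, with a median of -0.40. Single libraries left out gave 0 to 2 increases, with 0 without CPI-0209 replicate 1 or replicate 2, and 1 to 7 falls. Of these 22 genes 11 are at least 10 times higher in VMCUB, and the 7 falls were found without DMSO replicate 3, where the DMSO libraries left are the 2 that carry VMCUB-high transcripts.

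Basal and squamous genes gave 2 increases (8.33%, against 9.37% of all genes) and 1 fall of 24, with a median of -0.09. DSP, the desmosomal protein desmoplakin, had 98.7, 96.0 and 53.2 CPM in CPI-0209 libraries and 32.6, 21.4 and 22.9 CPM in DMSO libraries (1.69 ± 0.27, adjusted p = 0.00786), and the desmosomal cadherin DSC3 rose by 1.58 ± 0.20 (adjusted p = 0.0028). The groups do not overlap in DSP, with CPI-0209 replicate 3 the lowest of its group. The 1 fall was TP63. KRT6A at -4.99 ± 1.29 (adjusted p = 0.055) and KRT5 at -4.24 ± 1.23 (adjusted p = 0.0827) were not called, and 11 of the 24 genes are at least 10 times higher in VMCUB. In KRT5 the values were 1.45, 2.06 and 1.23 CPM in CPI-0209 libraries and 67.5, 21.01 and 0.892 CPM in DMSO libraries, so the difference is carried by DMSO replicates 1 and 2.

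Several lists of general cell state had 0 calls with edgeR. Of 53 cytosolic ribosomal protein genes 0 were past an unadjusted p of 0.05 and 0 were called by DESeq2 or limma, with a median of -0.03, although these genes set 1 library of each group apart. Mitochondrially encoded genes had 0 of 13 by each of these measures. Of 30 stress response genes 2 were higher and 2 lower at an unadjusted p under 0.05, with 0 and 2 called by DESeq2 and 1 and 4 by limma. Heat shock genes had 1 and 1 of 19, with 0 and 0 by DESeq2 and 1 and 1 by limma, housekeeping genes had 0 and 1 of 17, with 0 and 1 by DESeq2 and 0 and 2 by limma, and replication-dependent histone genes had 0 and 2 of 28, with 0 and 2 by DESeq2 and 0 and 3 by limma. Of 31 hypoxia and glycolysis genes 4 rose (12.9%, against 9.37% of all genes) and 1 fell, with a median of -0.14. The smallest p was that of EGLN3, an oxygen-sensing prolyl hydroxylase, with 5.48, 5.25 and 5.92 CPM in CPI-0209 libraries and 0.693, 0.652 and 0.661 CPM in DMSO libraries (3.05 ± 0.14, adjusted p = 0.000175). Single libraries left out gave 1 increase in this list without CPI-0209 replicate 2, 2 without DMSO replicate 3 and 6 without CPI-0209 replicate 3. Of 18 ERK feedback genes 3 rose (16.7%) and 1 fell, and of 25 immediate early genes 2 (8%) and 2. Of 22 YAP and TEAD targets the counts were 1 (4.55%) and 1. Of 25 cholesterol genes they were 1 (4%) and 0 (3 and 0 at an unadjusted p under 0.05, 1 and 0 with DESeq2, 4 and 0 with limma). The phosphatase DUSP1 fell by 0.56 ± 0.08 (adjusted p = 0.00434) while its relative DUSP4 rose by 0.62 ± 0.08 (adjusted p = 0.00312). Of 26 genes reported elsewhere as repressed by EZH2, 8 rose (30.8%) and 2 fell, with a median of 0.31. Leaving out single libraries gave 4 to 9 increases, the fewest without CPI-0209 replicate 1 or replicate 2.

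**Figure D4:**
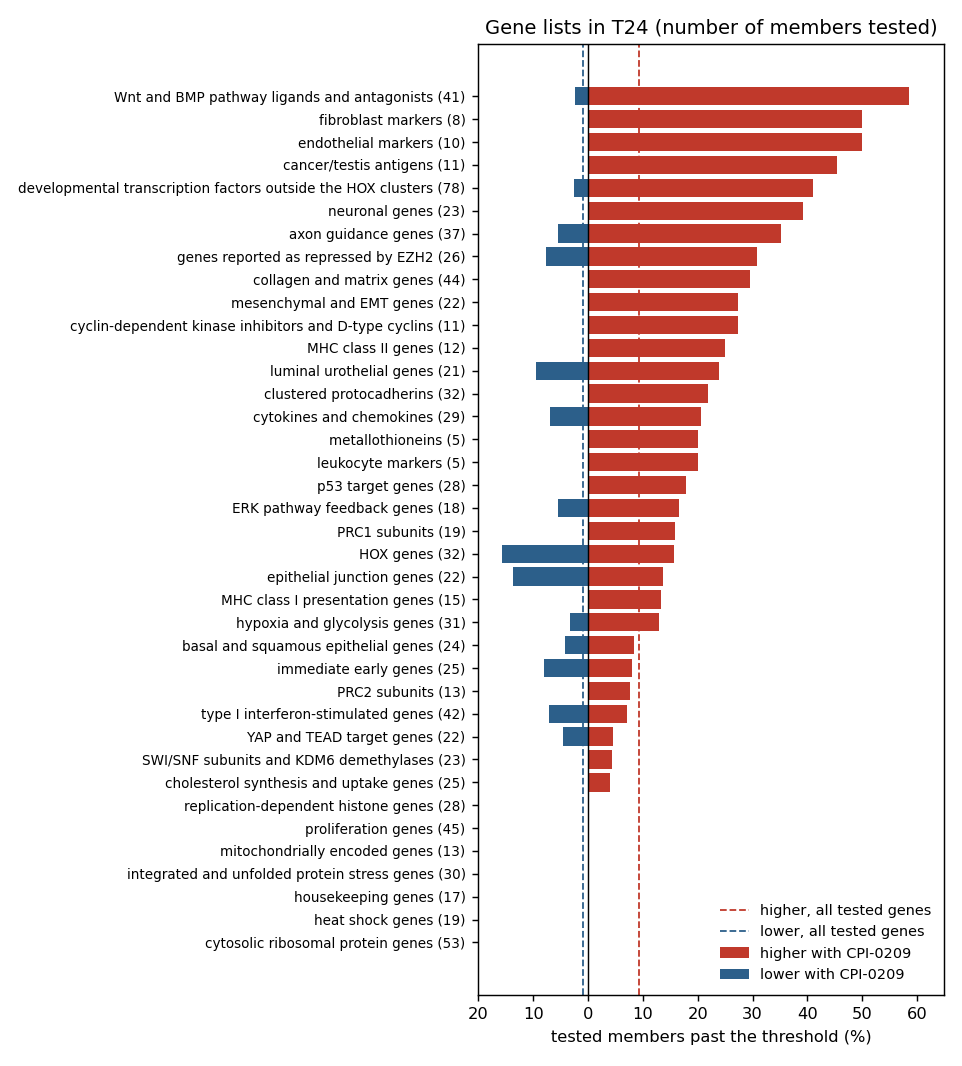
Share of the tested members of each gene list that rose (red, right) or fell (blue, left) with CPI-0209 in T24, for lists with at least 5 tested members, with dashed lines at the 9.37% and 0.93% of all tested genes. Wnt and BMP genes have 58.5% higher, HOX genes have equal bars on both sides, and lists at the foot had 0 calls.

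The T24 response was then set against the mean response of the other 7 lines, which asks where T24 differs. Over 19790 genes tested on all 48 libraries, the change in T24 was above that mean for 985 genes, 4.98%, and below it for 1208, 6.1%. Of the 1032 genes that rose at least 2-fold in T24, 527 rose more than the others' mean, 18 less, and in 1015 that mean was itself positive. These genes were chosen for their T24 change, so the counts are a description. Their median change was 1.87 in T24 and 1.11 over the other lines. Each other line has its own DMSO libraries, and its own fit called the same gene at least 2-fold higher in 0 lines for 91 of the 1032 genes, in 1 for 194, in 2 for 220, in 3 for 197, in 4 for 175, in 5 for 104, in 6 for 44 and in all 7 for 7. Shared genes were 50.6% of the T24 genes and 24.7% of those of HT1376, the largest share of the T24 set, and 12.1% and 33.9% for HT1197, the smallest. The lines differed in how many genes they called at least 2-fold higher, with 2113 of 16346 tested in HT1376 and 369 of 15579 in HT1197. Neither these shares nor the counts of lines were adjusted for this. Only part of the T24 set was tested in each line, between 749 and 935 genes.

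EFS had the largest of the 8 positive differences named here, at 6.9998 in T24 against 0.08 to 2.09 in the other lines (difference 5.91 ± 0.28, adjusted p = 5.11e-19). PIWIL1 changed by 6.53 in T24 and by -1.81 to 3.44 elsewhere (5.87 ± 0.82, adjusted p = 8.83e-07). MXRA5, a matrix-associated protein, had 3.72, 2.57 and 1.77 CPM in T24 CPI-0209 libraries and 0.0630, 0.0674 and 0.0991 CPM in T24 DMSO libraries, a change of 5.09 against -2.53 to 1.18 elsewhere (4.89 ± 0.88, adjusted p = 7.72e-05). KCTD15, a BTB domain protein, had 7.81, 8.02 and 7.02 CPM in T24 CPI-0209 libraries and 0.588, 0.315 and 0.132 CPM in T24 DMSO libraries, a change of 4.32 against -0.01 to 1.06 elsewhere (3.94 ± 0.16, adjusted p = 3.81e-21). In each of these the T24 change lies above that of all 7 other lines. The same holds for LMX1B (4.51 ± 0.38), TSPOAP1, a synaptic RIM-binding protein (4.04 ± 0.42), and BGN (3.65 ± 0.33), with adjusted p of 1.16e-11, 1.24e-09 and 5.55e-11. CCND2 rose by more than the mean of the others (3.83 ± 0.63, adjusted p = 1.7e-05), but the range elsewhere, 1.58 to 8.38, holds the T24 change of 7.65. Starting levels differed, with CPM scaled over all 48 libraries. KCTD15 had 0.352 CPM in T24 DMSO libraries, and 9.82 (VMCUB) to 86.2 CPM (HT1376) in those of other lines. With CPI-0209 its 7.64 CPM in T24 was still below each other line. The lowest changes elsewhere rest on few reads, with DMSO levels of 0.0132 CPM for MXRA5 (SW780) and 0.0376 CPM for PIWIL1 (HT1197).

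Other genes changed in T24 by less than the mean elsewhere. LGR5 changed by 2.81 in T24 and by 2.65 to 8.65 in the others (difference -2.08 ± 0.25, adjusted p = 3.29e-08). With CPM scaled over all 48 libraries, it had 4.21 CPM in T24 DMSO libraries and 0.0161 to 0.982 CPM in those of the other lines. With CPI-0209 it had 29.5 CPM in T24, the highest level of any line, and 7.79 CPM in SW780, the next. The smaller change of LGR5 in T24 thus starts from a higher level. INHBB, a subunit of activin B, had 16.6, 16.6 and 12.6 CPM in T24 CPI-0209 libraries and 7.98, 6.97 and 7.11 CPM in T24 DMSO libraries, a change of 1.03 against 1.13 to 3.79 elsewhere (-1.38 ± 0.18, adjusted p = 2.84e-07). Its DMSO level on the scale of all 48 libraries was 7.45 CPM in T24 and 0.0374 to 3.93 CPM in the other lines. For the homeodomain factor EN2 the change was 1.27 in T24 and 1.34 to 4.88 elsewhere (-1.33 ± 0.33, adjusted p = 0.00384), a difference that was not past the threshold without T24 DMSO replicates 1 and 2 (adjusted p = 0.0538). For INHBB and EN2 the T24 change is close to the lowest of the other lines, and single lines were not compared by a test. FOXF1 changed by 1.56 in T24 and by -0.37 to 6.75 elsewhere (-1.33 ± 0.27, adjusted p = 0.000495). On the same scale its DMSO level was 5.40 CPM in T24, 0.00894 CPM in 639V, which had the largest change, and 84.6 CPM in TCCSUP, which had the lowest. IL13RA2 changed by -1.06 in T24 and by -0.94 to 3.47 elsewhere (-1.91 ± 0.31, adjusted p = 1.28e-05). TP63 differed by -3.53 ± 0.49 (adjusted p = 1.23e-06), and by -0.87 (adjusted p = 0.558) without T24 DMSO replicates 1 and 2, which hold its high values.

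By list, 6 of 130 developmental transcription factors changed by more in T24 than in the others and 32 by less, and among HOX genes 1 and 17 of 39. For Wnt and BMP genes the counts were 9 and 14 of 60, for collagen and matrix genes 9 and 13 of 53, and for basal and squamous genes 2 and 11 of 39, beside 4.98% and 6.1% of all genes. These counts were not adjusted for the level of each gene in DMSO libraries, which can differ between lines. Basal genes include many that are at least 10 times higher in VMCUB, and without such genes the number of at least 2-fold smaller changes in T24 was 253 in place of 421 over all genes.

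**Figure D5:**
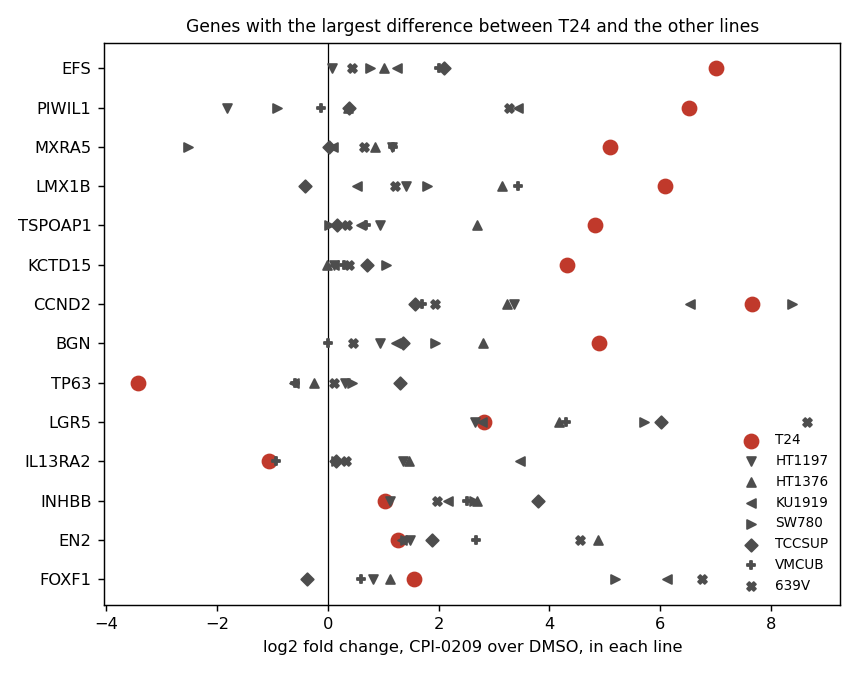
Log2 fold change of CPI-0209 over DMSO in each of the 8 lines for the 14 genes named for their difference between T24 and the others, with T24 as the large red circle and each other line as a grey symbol. T24 lies to the right of all other lines for EFS, PIWIL1, MXRA5, LMX1B, TSPOAP1, KCTD15 and BGN. It lies to the left of all for TP63, and, by a small margin, for IL13RA2, INHBB and EN2.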

How the data were processed

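Total RNA was extracted with Trizol and sequenced as paired-end reads from TruSeq libraries, per the labels' protocols. The authors deposited 1 table of whole-number read counts by Ensembl ID, for which the submitters' processing notes list RSEM 1.3.1, STAR 2.7.3a and hg38. The sources used here do not give the annotation, the rounding or whether counting used strand, so overlapping and antisense genes are uncertain. All 35535 entries name a gene, and 35414 symbols came from a gene name table. Coordinates and exonic lengths came from GENCODE 29 (GRCh38).

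The 6 T24 libraries were compared with edgeR 4.0.16 in R 4.3.3 by its robust quasi-likelihood test, after filterByExpr and TMM scaling, with 4 residual degrees of freedom and p adjusted by Benjamini-Hochberg over all genes tested. The T24 change was tested against the mean change of the 7 other lines on all 48 libraries in 16 groups. SE is the absolute log2 fold change over the square root of F. With 0 DMSO counts a fold is a bound against 3 counts over the group, and with 1 to 3 it is a ratio with an exact 95% interval. Principal components used log2 CPM with a prior count of 2, and figures matplotlib 3.10.9. Each test was run on simulated counts first. Alternatives used RLE factors, library totals, no filter, DESeq2 1.42.0, limma 3.58.1 with library weights, the spread of all 48 libraries, a replicate block and libraries left out. Those on transcript length, on VMCUB-high genes and without T24 DMSO replicates 1 and 2 were added after seeing the data.

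The members and the 38 gene lists were chosen with earlier results of these data known. Named genes were EZH2, EZH1, EED and SUZ12, the 16 higher and 10 lower called genes with the largest folds, groups that do not overlap and at least 1 CPM in the higher group, and the 8 and 6 genes with the largest differences from the other lines among those changed at least 2-fold in T24. For each list up to 4 members with the smallest p were taken. Genes shown for libraries that stand apart lay farthest from the group with at least 10 CPM in the higher library. Clone names, pseudogenes and the like were not named. Members named beyond these rules, KRT5, KRT6A and the other VMCUB-high genes were chosen after their values were seen.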

Additional observations from a re-analysis of the deposited data

Results flagged for a closer look

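The change with CPI-0209 differed between T24 and the mean of the other 7 lines, by a test of the difference itself (edgeR's quasi-likelihood test, 48 libraries), for 985 genes above that mean and 1208 below it. Among genes called at least 2-fold higher in T24, the differences in log2 fold change were 5.91 for EFS, 5.87 for PIWIL1, 4.89 for MXRA5, 4.51 for LMX1B, 4.04 for TSPOAP1, 3.94 for KCTD15, 3.83 for CCND2 and 3.65 for BGN. Below the others' mean they were -3.53 for TP63, -2.08 for LGR5, -1.91 for IL13RA2, -1.38 for INHBB, -1.33 for EN2 and -1.33 for FOXF1. None was adjusted for the level in DMSO libraries, which differed between lines. TP63 and EN2 were not past the threshold without T24 DMSO replicates 1 and 2 (adjusted p = 0.558 and 0.0538), and the other 12 differences were past it under each of 13 alternatives.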

How the results depend on the processing

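The 1452 increases, 144 decreases, 1032 at least 2-fold increases and 8 at least 2-fold decreases in T24 depended on the fit as follows, and the cause was not tested except where fewer libraries or genes entered. Library totals gave 90 decreases and 5 of at least 2-fold, with 95% of calls higher and a median over all genes of 0.05. Without the filter there were 13 decreases of at least 2-fold. Leaving out CPI-0209 replicate 3 and DMSO replicate 2 gave 2446, 1395 and 26 (increases, decreases, 2-fold decreases), limma with library weights 2594, 983 and 31, and all 48 libraries 2762, 1582 and 176. DESeq2 gave 521 decreases and 52 of at least 2-fold, and removing a length trend 276 decreases. Without DMSO replicates 1 and 2 together, where the lone DMSO library is assumed to vary like the others, there were 431, 2, 428 and 1. Single libraries left out gave 905 to 1677 increases, 31 to 188 decreases, 761 to 1059 and 4 to 81 of at least 2-fold. No called direction reversed.

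A replicate block gave 1019 increases, 26 decreases, 887 and 4 of at least 2-fold, and 788, 949, 348 and 347 against the other lines. The labels do not pair the numbers. The deviations of same-numbered libraries had r of 0.22, -0.34 and -0.30 across genes, which are not independent replicates. For pairs with different numbers r ranged from -0.44 to 0.54, the highest between CPI-0209 replicate 3 and DMSO replicate 2. Against the other lines, the 985, 1208, 370 and 421 calls held within 1.5 times except without T24 DMSO replicates 1 and 2 (573 below, 192 of them at least 2-fold) and without VMCUB-high genes (253). Single libraries left out gave 754 to 1123, 892 to 1351, 341 to 412 and 316 to 452.

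Of the genes that rose at least 2-fold, 63.6% had under 1 CPM in DMSO libraries, where few counts limit how well the size of a fold is known.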
